A study of Mus musculus with 12 samples.

Results

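The genes described here are 30 genes of developing T cells (thymocytes), read in RNA from sorted thymic epithelial cells (TECs), the stromal cells that nurture thymocytes. They were chosen by symbol as genes whose known role is in T cells, and with earlier results of these data at hand. All 30 matched an entry among the 27179 genes of the count files, and all 30 passed the filter on low counts, which 19398 genes passed. There were 12 libraries from C57BL/6 mice, 3 in each of 4 groups. HOIL-deficient mTEChi and HOIL-deficient cTECs came from Foxn1creT/+ mice with the Hoillox/lox allele, in which Cre is driven in TECs. Control mTEChi and control cTECs came from Foxn1cre+/+ mice, which lack Cre but carry the same floxed allele. HOIL, encoded by Rbck1, is a subunit of the complex that builds linear ubiquitin chains. The labels give neither the age of the mice nor whether replicates were separate animals, so the p values speak for the spread among these libraries, which may be technical. Of the libraries, 10 were labelled male and 2 female, and the female ones were replicate 3 of both HOIL-deficient groups.

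The cTECs (cortical TECs) were gated as negative for CD45, TER-119 and CD31 and positive for EpCAM, MHC class II and Ly51. The mTEChi (medullary TECs with high MHC class II) had the same negative gate, were EpCAM-positive and Ly51-negative and bound the lectin UEA1. Ptprc, one of the 30 genes, encodes CD45, so the gate was meant to remove cells that carry its protein.

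Thymocytes assemble their antigen receptor genes in the thymic cortex. The RAG recombinase cuts the gene segments, terminal transferase adds bases at the joints, and the first receptor chain is tested with the pre-T cell receptor chain. Double-positive thymocytes, which bear both CD4 and CD8, are the most common cells of the cortex and lie in close contact with cTECs. Some cTECs, called thymic nurse cells, enclose double-positive thymocytes within their membrane folds. Receptor signals pass from the CD3 chains through the kinases Lck and Zap70 to the adaptor Lat, and decide whether a thymocyte survives. The medulla holds more mature, single-positive thymocytes.

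Total counts ranged from 7941217 to 14274333 per library. Rbck1, the targeted gene, had 10.9, 11.7 and 23.3 CPM (counts scaled to the library's total) in HOIL-deficient mTEChi, against 114, 128 and 108 CPM in control mTEChi. It had 22.0, 33.0 and 22.5 CPM in HOIL-deficient cTECs, against 183, 236 and 221 CPM in control cTECs. Aire, a medullary regulator, was at 577 to 1016 CPM in the mTEChi libraries and at 0 to 1.66 CPM in the cTEC libraries. Psmb11, the cortical thymoproteasome subunit, was at 55.0 to 114 CPM in mTEChi and at 1452 to 4404 CPM in cTECs, so both sets carried the marker of their label.

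RNA of the 30 thymocyte genes was present in every library and was most abundant in control cTECs. No member was at 0 counts in any library, and the lowest value was 10 counts. The summed level of the 30 genes in replicates 1 to 3 was 562, 573 and 855 CPM in HOIL-deficient mTEChi and 558, 466 and 441 CPM in control mTEChi. It was 1098, 943 and 1873 CPM in HOIL-deficient cTECs, against 7258, 2349 and 3413 CPM in control cTECs. The members thus took from 0.0441% to 0.726% of a library's counts. Every HOIL-deficient cTEC library lay below every control cTEC library, and the ratio of the 2 group means was 0.301. It was 0.453 without control cTEC replicate 1, the library with the highest sum. In mTEChi the ratio of the 2 means was 1.36, and 1.16 without HOIL-deficient replicate 3, the female library with the highest sum of that cell type. Which cells the RNA came from was not tested. In such bulk samples, fewer cells that hold it and less of it per cell cannot be told apart.

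**Figure D1:**
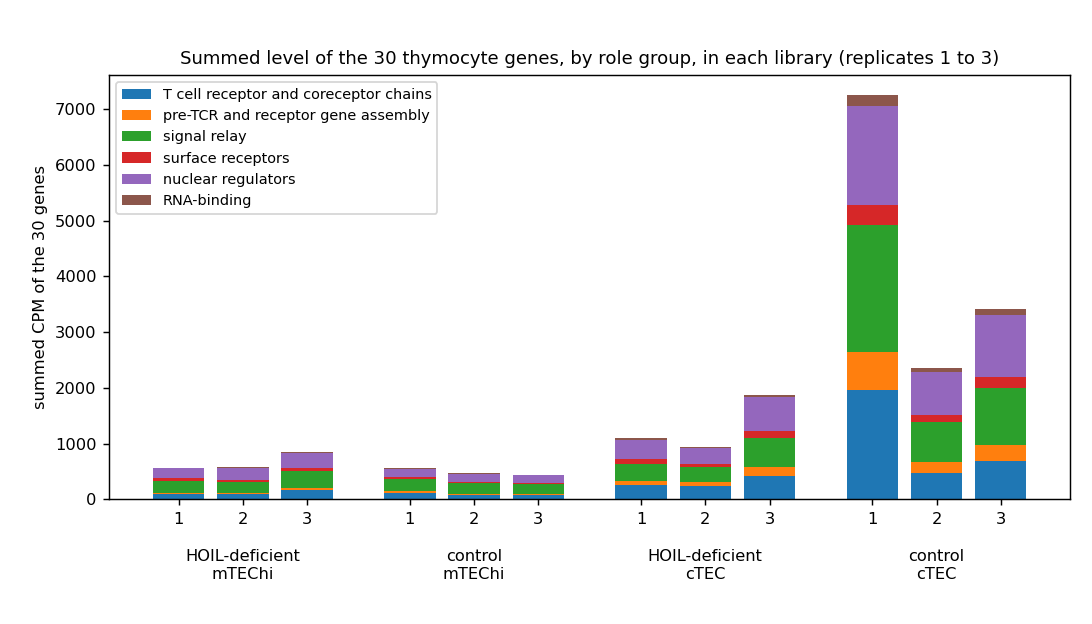
Stacked bars give the summed CPM of the 30 thymocyte genes in each library, coloured by role group, with replicates 1 to 3 of HOIL-deficient mTEChi, control mTEChi, HOIL-deficient cTECs and control cTECs from left to right. Control cTEC replicate 1 stands at 7258 CPM, and the HOIL-deficient cTEC libraries reach 943 to 1873 CPM.

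In HOIL-deficient cTECs, 25 of the 30 thymocyte genes fell and none rose. A gene was called when the Benjamini-Hochberg adjusted p of edgeR's quasi-likelihood test, taken over all 19398 tested genes, was under 0.05. By that rule 6.02% of all tested genes were lower in HOIL-deficient cTECs. The members' median log2 fold change was -1.88, against -0.02 over all tested genes, and it ran from -2.50 for Rag2 to -0.86 for Cd28. For 26 members the 3 HOIL-deficient libraries lay below the 3 control libraries without overlap, as did 12% of all tested genes. The standard error (SE) given with each fold change is approximate, made from the fold change and its F statistic.

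The number of calls moved with single cTEC libraries. It was 11 without HOIL-deficient cTEC replicate 2, 15 without HOIL-deficient cTEC replicate 1 and 12 without control cTEC replicate 1, and 16 when the 2 cTEC groups were fitted alone. Control cTEC replicate 1 was the highest of its group for 30 of 30 members, by a median of 2.56 times the mean of replicates 2 and 3. That excess ran from 1.26 times for Ets1 to 4.15 times for Cd8a. Replicate 2 was the lowest control for all 30 members. Set against the mean of control replicates 2 and 3 alone, the HOIL-deficient mean was 0.310 (Cd4) to 0.899 (Cd28) times as high, with a median ratio of 0.444. Across the 20 alternatives run, 9 members were called lower in every one. These were Cd4, Lck, Coro1a, Ptprc, Cd6, Cd27, Tcf7, Bcl11b and Arpp21.

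**Figure D2:**
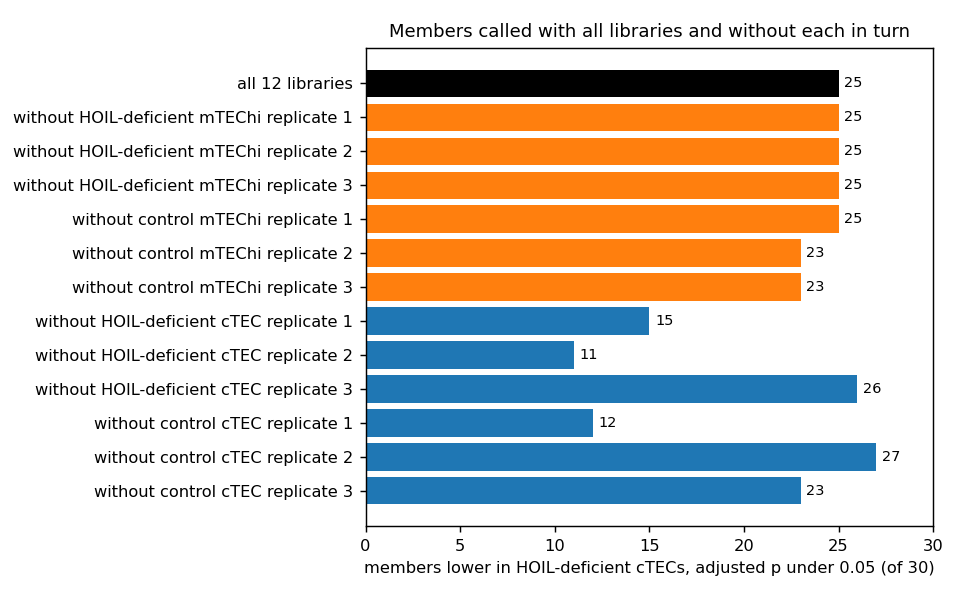
Bars give the number of the 30 members called lower in HOIL-deficient cTECs with all 12 libraries (black) and without each library in turn, with mTEChi libraries in orange and cTEC libraries in blue. The number stays at 23 to 25 without any mTEChi library, and falls to 11, 12 or 15 without one of 3 cTEC libraries.

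**Figure D3:**
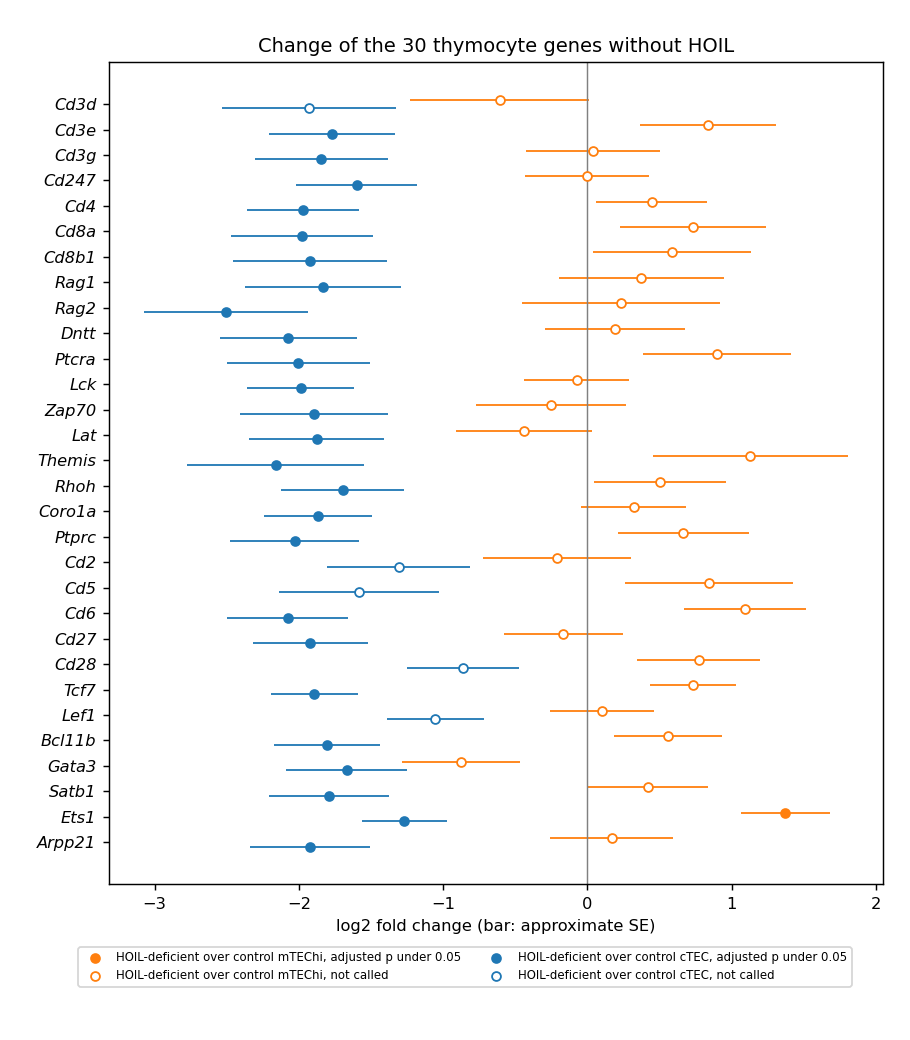
Points give the log2 fold change of each member for HOIL-deficient over control mTEChi (orange) and HOIL-deficient over control cTECs (blue), with bars of 1 approximate SE, and filled points are called at adjusted p under 0.05. All blue points lie left of 0 and 25 are filled, while the orange points spread around 0 and only Ets1 is filled.

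Promoter sequence was looked up because the members moved together. RefSeq windows of GRCm38.p6 covered 24 of the 30 members with 46 windows, each taken as the 250 bases before an annotated start. The letters searched on both strands were AGGAAG (the core bound by ETS factors), TGNGGT (the core bound by RUNX factors) and CANNTG (the E-box bound by E proteins). AGGAAG was in 39.1% of the members' windows and in 29.5% of all 32851 windows. TGNGGT was in 47.8% of the members' windows and in 40.1% of all windows. CANNTG was in 80.4% of the members' windows and in 66.2% of all windows. Some members, Arpp21 among them, had several windows that overlapped, so the 46 windows are not separate promoters. By gene, 13 of the 24 members had AGGAAG in any window, 15 had TGNGGT and 22 had CANNTG. The share of all genes with a match in any window was not taken. A gene with more windows has more room for a match, so these counts cannot be set against the shares per window. These 6-letter matches are descriptions, since each is common in windows of any gene. The windows printed are those of a neighbouring pair of receptor chains, of a recombinase gene and of the kinase Lck, each 5′ to 3′ on the gene's strand, with capitals for a match to any of the 3 motifs. In the Rag1 window one run of capitals holds an E-box that overlaps a RUNX core.

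Cd3d, chr9:44981536-44981785, plus strand: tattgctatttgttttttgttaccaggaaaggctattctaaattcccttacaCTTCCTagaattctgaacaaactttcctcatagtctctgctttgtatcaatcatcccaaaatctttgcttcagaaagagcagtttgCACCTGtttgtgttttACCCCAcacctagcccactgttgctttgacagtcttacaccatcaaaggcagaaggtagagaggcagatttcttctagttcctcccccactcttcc

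Cd3g, chr9:44980432-44980681, minus strand: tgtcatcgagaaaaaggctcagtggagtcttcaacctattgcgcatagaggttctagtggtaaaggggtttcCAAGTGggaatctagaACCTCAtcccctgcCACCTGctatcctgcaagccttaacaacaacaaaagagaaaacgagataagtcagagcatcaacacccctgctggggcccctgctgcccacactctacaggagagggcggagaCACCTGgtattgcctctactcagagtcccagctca

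Rag1, chr2:101649533-101649782, minus strand: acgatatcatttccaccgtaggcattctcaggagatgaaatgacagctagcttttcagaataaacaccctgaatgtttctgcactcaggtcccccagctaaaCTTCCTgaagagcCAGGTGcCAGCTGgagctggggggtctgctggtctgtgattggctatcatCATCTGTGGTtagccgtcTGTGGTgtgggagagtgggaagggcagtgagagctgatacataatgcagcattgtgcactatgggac

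Lck, upstream start, chr4:129573642-129573891, minus strand: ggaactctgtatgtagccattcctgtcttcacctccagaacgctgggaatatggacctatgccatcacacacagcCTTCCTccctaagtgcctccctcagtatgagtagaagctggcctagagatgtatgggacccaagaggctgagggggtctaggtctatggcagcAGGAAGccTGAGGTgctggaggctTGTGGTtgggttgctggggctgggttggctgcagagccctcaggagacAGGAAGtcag

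Lck, downstream start, chr4:129558373-129558622, minus strand: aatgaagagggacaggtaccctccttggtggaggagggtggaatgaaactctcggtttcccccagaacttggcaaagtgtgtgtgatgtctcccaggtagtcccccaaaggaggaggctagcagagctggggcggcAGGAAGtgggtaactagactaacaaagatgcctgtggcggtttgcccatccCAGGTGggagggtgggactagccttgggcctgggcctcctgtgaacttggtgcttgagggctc

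Cd3d and Cd3g run in opposite directions from starts close to each other. The upstream Lck window held 3 matches to AGGAAG and 2 to TGNGGT, and the downstream one held 1 match to AGGAAG, none to TGNGGT and 1 to CANNTG. The counts are per gene and do not show which Lck start was used.

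The receptor and coreceptor chains fell together in HOIL-deficient cTECs, with 6 of 7 called. Cd3e, a signalling chain of the receptor complex, had 31.3, 28.0 and 39.3 CPM in HOIL-deficient cTECs, against 191, 47.3 and 74.6 CPM in control cTECs. The groups did not overlap (log2 fold change -1.77, SE 0.44, adjusted p = 0.0191). Cd8a and Cd8b1, which encode the 2 chains of the CD8 coreceptor, lie close to each other on chromosome 6. Cd8a stood at 63.6, 62.4 and 108 CPM in HOIL-deficient cTECs and at 578, 115 and 163 CPM in control cTECs. Cd8b1 stood at 61.9, 65.4 and 117 CPM in HOIL-deficient cTECs and at 560.1, 120.4 and 180.4 CPM in control cTECs. Both fell with near-equal fold changes, -1.98 (SE 0.49, adjusted p = 0.0198) for Cd8a and -1.92 (SE 0.53, adjusted p = 0.0330) for Cd8b1. Cd4, the other coreceptor, had 23.2, 11.1 and 38.0 CPM in HOIL-deficient cTECs, against 110.1, 69.6 and 85.7 CPM in control cTECs. Its groups did not overlap, and control replicate 1 stood out less for Cd4 than for the CD8 chains (log2 fold change -1.97, SE 0.39, adjusted p = 0.00558). Cd3g fell (log2 fold change -1.85, SE 0.46, adjusted p = 0.0198), and so did Cd247, the zeta chain (log2 fold change -1.60, SE 0.42, adjusted p = 0.0244). Cd247 overlaps Pou2f1 in the annotation, and its cTEC groups overlapped. Cd3d missed the threshold (log2 fold change -1.93, SE 0.60, adjusted p = 0.0512), although its libraries did not overlap, with 21.6, 19.6 and 32.4 CPM in HOIL-deficient cTECs and 171, 35.3 and 54.4 CPM in control cTECs.

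Cd3d, Cd3e and Cd3g share one stretch of chromosome 9, from 44969572 to 45009663 (GRCm38.p6). Leaving out HOIL-deficient cTEC replicate 1 or 2 or control cTEC replicate 1 ended the calls of Cd3e, Cd3g, Cd247, Cd8a and Cd8b1. Over the 20 alternatives their fold changes stayed below 0, at -2.12 to -0.97 for Cd3e and -2.35 to -0.91 for Cd8a, and the highest adjusted p was 0.151, for Cd8b1. Cd3d was called in 3 alternatives, DESeq2 among them, with adjusted p of up to 0.282 in the others. Cd4 kept its call in each alternative, with a fold change of -2.45 to -1.63.

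All 4 genes of receptor gene assembly and pre-receptor signalling fell in HOIL-deficient cTECs. Rag1 and Rag2, the subunits of the recombinase, are neighbours on chromosome 2. Rag1 had 20.2, 15.5 and 57.2 CPM in HOIL-deficient cTECs, against 157, 73.0 and 77.2 CPM in control cTECs (log2 fold change -1.83, SE 0.54, adjusted p = 0.0412). Rag2 had 4.50, 8.91 and 17.0 CPM in HOIL-deficient cTECs, against 105, 23.2 and 33.8 CPM in control cTECs. Its fold change was the largest of the 30 members (log2 fold change -2.50, SE 0.57, adjusted p = 0.0120), and its groups did not overlap. Rag2 overlaps Iftap in the annotation, and whether reads were counted by strand is not given. Dntt, the terminal transferase, stood at 38.6, 50.2 and 78.4 CPM in HOIL-deficient cTECs and at 398, 98.9 and 157 CPM in control cTECs (log2 fold change -2.07, SE 0.47, adjusted p = 0.0127). Ptcra, the pre-T cell receptor chain, had 3.43, 4.0 and 4.0 CPM in HOIL-deficient cTECs and 23.6, 5.79 and 13.5 CPM in control cTECs (log2 fold change -2.0, SE 0.50, adjusted p = 0.0191). Within HOIL-deficient cTECs, replicate 3 held the most Rag1, Rag2 and Dntt RNA, while its Ptcra level was close to that of replicate 2. The 4 calls differed in how far they hung on one library. Rag2 lost its call without control cTEC replicate 1 (adjusted p = 0.0601) and Dntt without HOIL-deficient cTEC replicate 2 (adjusted p = 0.0574). Rag1 lost its call in 9 of the 20 alternatives (adjusted p of up to 0.136) and Ptcra in 3 (up to 0.0854), both of them without HOIL-deficient cTEC replicate 1 and without control cTEC replicate 1.

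All 7 signal relay genes fell in HOIL-deficient cTECs. Lck, the kinase bound to the coreceptors, had 134, 92.7 and 216 CPM in HOIL-deficient cTECs, against 904, 295 and 435 CPM in control cTECs. Its groups did not overlap, with HOIL-deficient replicate 3 nearest to the controls (log2 fold change -1.99, SE 0.37, adjusted p = 0.00411). Coro1a, an actin regulator of leukocytes that T cells need for survival, stood at 70.9, 70.2 and 112 CPM in HOIL-deficient cTECs and at 516, 138 and 206 CPM in control cTECs (log2 fold change -1.87, SE 0.37, adjusted p = 0.00619). Ptprc, the CD45 phosphatase that sets the activity of Lck, had 35.4, 34.1 and 75.6 CPM in HOIL-deficient cTECs and 311, 98.9 and 142 CPM in control cTECs. RNA of the very antigen used to gate cells out was thus read in every library, and it fell with the others (log2 fold change -2.03, SE 0.45, adjusted p = 0.0105). Themis, which tunes receptor signals during selection, had 11.7, 17.6 and 33.6 CPM in HOIL-deficient cTECs, against 161, 41.7 and 59.4 CPM in control cTECs (log2 fold change -2.16, SE 0.61, adjusted p = 0.0348). Zap70, the kinase that binds the CD3 chains, fell as well (log2 fold change -1.89, SE 0.51, adjusted p = 0.0283). Lat, the adaptor it phosphorylates, fell likewise (log2 fold change -1.88, SE 0.47, adjusted p = 0.0193), and so did Rhoh, an atypical GTPase that aids Zap70 (log2 fold change -1.70, SE 0.43, adjusted p = 0.0202). Lck, Coro1a and Ptprc were called in each of the 20 alternatives, with log2 fold changes of -2.35 to -1.38 for Lck, -2.20 to -1.10 for Coro1a and -2.49 to -1.39 for Ptprc. Themis lost its call in 6, Zap70 in 5, Rhoh in 4 and Lat in 2 of them, with adjusted p of up to 0.159 for Themis, 0.130 for Zap70, 0.0851 for Rhoh and 0.0712 for Lat. Among those alternatives were the fits without HOIL-deficient cTEC replicate 2 and without control cTEC replicate 1, for all 4 genes.

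The surface receptors were the least uniform set, with 2 of 5 called. Cd6, a receptor for the adhesion protein ALCAM, had 13.1, 5.74 and 24.4 CPM in HOIL-deficient cTECs, against 80.8, 34.5 and 56.0 CPM in control cTECs (log2 fold change -2.08, SE 0.42, adjusted p = 0.00655). Cd27, a receptor of the TNF receptor family, had 19.5, 11.7 and 23.4 CPM in HOIL-deficient cTECs, against 104, 37.4 and 51.6 CPM in control cTECs (log2 fold change -1.92, SE 0.40, adjusted p = 0.00748). Both were called in every alternative and neither overlapped between groups. Cd28, the costimulatory receptor, had the smallest fold change of the 30, with 32.6, 28.4 and 55.1 CPM in HOIL-deficient cTECs and 110.2, 33.1 and 52.9 CPM in control cTECs. HOIL-deficient replicate 3 stood above control replicates 2 and 3, so the groups overlapped (log2 fold change -0.86, SE 0.39, adjusted p = 0.172). Cd5, which dampens receptor signals and lies near Cd6 on chromosome 19, had 2.72, 6.56 and 13.9 CPM in HOIL-deficient cTECs and 37.2, 11.8 and 15.9 CPM in control cTECs (log2 fold change -1.58, SE 0.55, adjusted p = 0.0796). Cd2, an adhesion receptor, did not overlap between groups but missed the threshold (log2 fold change -1.31, SE 0.50, adjusted p = 0.104). Cd5, whose groups overlapped, was called in 3 alternatives, the fit on male libraries among them, while Cd2 and Cd28 were called in none.

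Of the 6 nuclear regulators, 5 fell. Tcf7, which encodes the T lineage factor TCF-1, had 106, 71.9 and 168 CPM in HOIL-deficient cTECs, against 581, 249 and 367 CPM in control cTECs. It had the smallest adjusted p of the 30 (log2 fold change -1.89, SE 0.30, adjusted p = 0.00179), and its fold change ran from -2.25 to -1.49 over the alternatives. Satb1, a chromatin organizer of thymocytes, stood at 96.0, 105 and 227 CPM in HOIL-deficient cTECs and at 741, 261 and 376 CPM in control cTECs (log2 fold change -1.79, SE 0.42, adjusted p = 0.0141). Ets1, an ETS factor of lymphocytes, had 76.5, 52.2 and 112 CPM in HOIL-deficient cTECs and 210.1, 141 and 192 CPM in control cTECs. Its fall was smaller than the members' median (log2 fold change -1.27, SE 0.30, adjusted p = 0.0141). Bcl11b, which commits progenitors to the T lineage, fell to 34.8, 16.6 and 44.6 CPM in HOIL-deficient cTECs, against 130.5, 76.8 and 107 CPM in control cTECs (log2 fold change -1.81, SE 0.37, adjusted p = 0.00708). Gata3, which directs the CD4 lineage and is also known from epithelial tissues, had 9.0, 3.89 and 8.45 CPM in HOIL-deficient cTECs and 32.9, 9.07 and 21.4 CPM in control cTECs. HOIL-deficient replicate 1 lay only just under control replicate 2 (log2 fold change -1.67, SE 0.42, adjusted p = 0.0202). Lef1, a relative of TCF-1, missed the threshold (log2 fold change -1.05, SE 0.34, adjusted p = 0.0580) and its groups overlapped, with 30.7, 24.6 and 37.3 CPM in HOIL-deficient cTECs and 88.9, 36.3 and 54.2 CPM in control cTECs. Tcf7 and Bcl11b kept their call in every alternative. Satb1 and Ets1 lost theirs without HOIL-deficient cTEC replicate 2 alone (adjusted p = 0.0608 for Satb1 and 0.0536 for Ets1). Gata3 lost its call in 5 alternatives, the fits without control cTEC replicate 1 and without control cTEC replicate 3 among them (adjusted p of up to 0.0777). Tcf7 overlaps Skp1 and Gata3 overlaps 2 further counted genes in the annotation.

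Arpp21, an RNA-binding protein abundant in double-positive thymocytes, had 32.0, 28.8 and 41.6 CPM in HOIL-deficient cTECs, against 189.7, 68.5 and 104 CPM in control cTECs. Its groups did not overlap (log2 fold change -1.92, SE 0.41, adjusted p = 0.00935), and it was called in every alternative. Arpp21 shares its locus with Mir128-2 and one further counted gene.

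**Figure D4:**
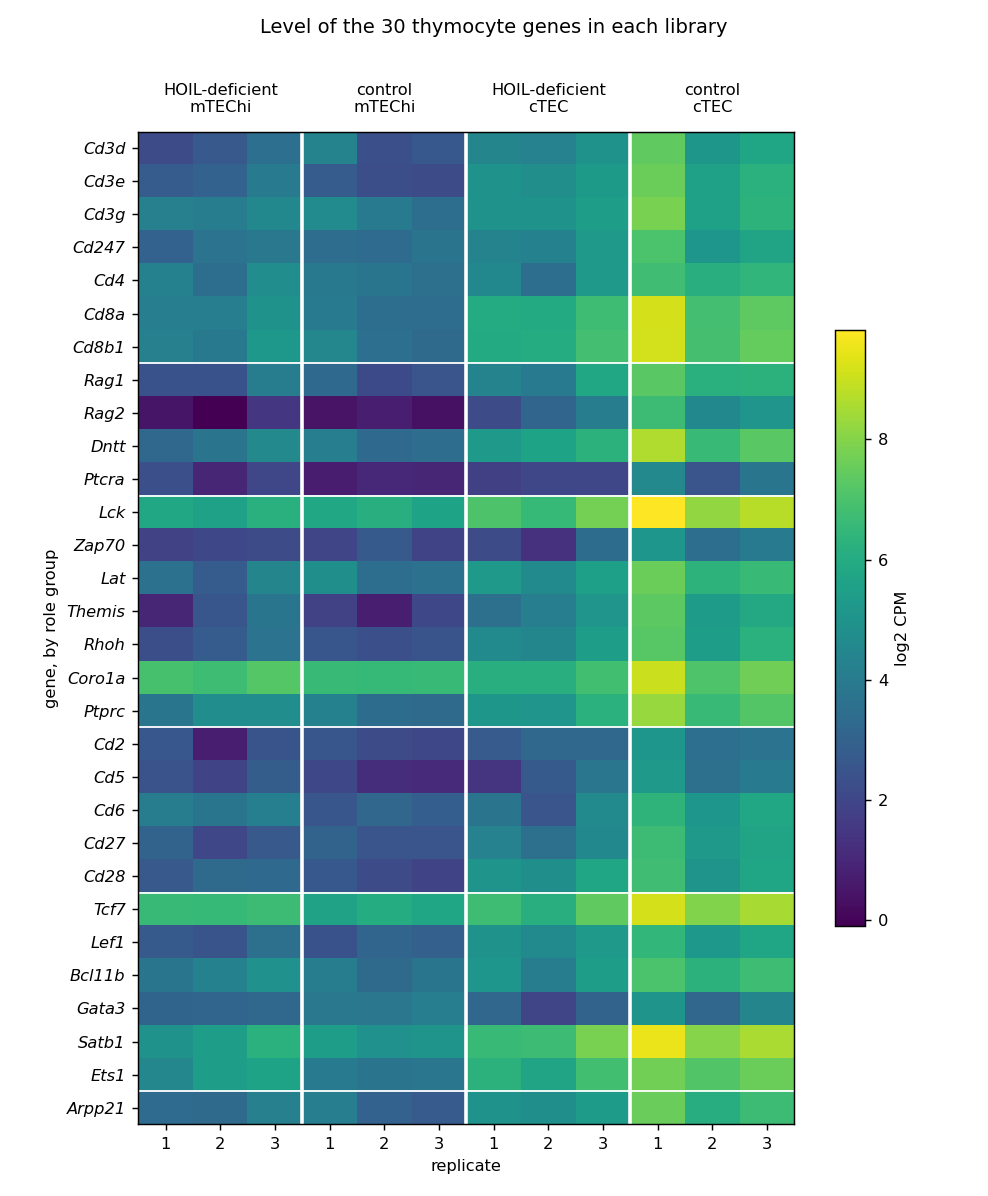
Each cell gives the log2 CPM of one member (rows, by role group) in one library (columns, replicates 1 to 3 of HOIL-deficient mTEChi, control mTEChi, HOIL-deficient cTECs and control cTECs). The column of control cTEC replicate 1 is the brightest for all 30 rows of its group, and Coro1a, Tcf7 and Lck stand out in the mTEChi columns.

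In mTEChi 1 of the 30 genes passed the test. Ets1 rose in HOIL-deficient mTEChi, where 11.3% of all tested genes were higher, and none fell, against 8.59% of all. The members' median log2 fold change was 0.40, against -0.03 over all tested genes. Of the 30, 22 were above 0, but that number ran from 16 to 25 over the alternatives, and 12 members changed sign in at least one. In 6 members the HOIL-deficient mTEChi libraries lay above all controls, and in 1 below them, against 23.8% and 20.6% of all tested genes. Ets1 had 22.6, 44.1 and 50.2 CPM in HOIL-deficient mTEChi, against 16.0, 13.0 and 13.9 CPM in control mTEChi. The 3 controls lay close together and all HOIL-deficient libraries lay above them (log2 fold change 1.37, SE 0.31, adjusted p = 0.00779). Ets1 was called in each of the 20 alternatives, with a fold change of 1.14 to 1.65. Tcf7 stood at 96.9, 92.7 and 105 CPM in HOIL-deficient mTEChi and at 48.7, 65.9 and 55.2 CPM in control mTEChi. Its groups did not overlap, but it missed the threshold (log2 fold change 0.74, SE 0.30, adjusted p = 0.0970). Cd6 was similar, with 17.3, 13.6 and 18.3 CPM in HOIL-deficient mTEChi and 5.94, 9.0 and 7.29 CPM in control mTEChi (log2 fold change 1.09, SE 0.42, adjusted p = 0.0848). Gata3 went the other way without a call, with 8.48, 8.78 and 9.25 CPM in HOIL-deficient mTEChi and 14.7, 14.2 and 17.7 CPM in control mTEChi (log2 fold change -0.88, SE 0.41, adjusted p = 0.148). Fitted on the mTEChi libraries alone, 3 members were higher, 1 was lower, and Tcf7, Cd6 and Gata3 passed the threshold.

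Lck was not called in mTEChi, with 55.4, 48.1 and 73.1 CPM in HOIL-deficient mTEChi and 58.1, 69.7 and 50.2 CPM in control mTEChi. Malat1, an abundant nuclear RNA, did not overlap between the same groups, with 7128, 8584 and 9827 CPM in HOIL-deficient mTEChi and 51319, 32896 and 39722 CPM in control mTEChi, and its part in the members' values was not tested. Themis shows how uneven the libraries were, with 1.97, 5.88 and 13.5 CPM in HOIL-deficient mTEChi and 3.58, 1.65 and 4.17 CPM in control mTEChi (log2 fold change 1.13, SE 0.68, adjusted p = 0.262). HOIL-deficient mTEChi replicate 3, the female library, was the highest of its group for 26 of 30 members. HOIL-deficient cTEC replicate 3, also female, was the highest of its group for 28. Sex cannot be told apart from the library here, since no control was female. Within the 10 male libraries 23 members were lower in HOIL-deficient cTECs.

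The HOIL effect in mTEChi minus that in cTECs was above 0 for all 30 members, and the difference itself passed the test for 16. Over all tested genes 5.97% passed in that direction. The members' median difference was 2.21 on the log2 scale, against 0.09 over all tested genes. Cd6 (log2 difference 3.17, SE 0.59, adjusted p = 0.00692), Ets1 (log2 difference 2.64, SE 0.43, adjusted p = 0.00348) and Tcf7 (log2 difference 2.63, SE 0.42, adjusted p = 0.00341) had the smallest adjusted p. Themis had the largest difference (log2 difference 3.29, SE 0.91, adjusted p = 0.0359), and lost its call in 12 of 19 alternatives. Cd4, Cd6, Tcf7, Bcl11b and Ets1 were called in all 19. The count of calls was 9 within the male libraries. It was 9 without HOIL-deficient cTEC replicate 1 or 2, 6 without HOIL-deficient mTEChi replicate 3, 10 without control mTEChi replicate 1 or 2, and 5 without control mTEChi replicate 3.

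Among the controls, mTEChi held much less RNA of these genes than cTECs. Of the 30, 29 were lower in control mTEChi, against 26.4% of all tested genes, and in the same number the 3 mTEChi libraries lay below all cTEC libraries, against 31.6% of all. The members' median log2 fold change was -3.04, against 0.24 over all tested genes. Rag2 had 1.33, 1.65 and 1.27 CPM in control mTEChi, against 105, 23.2 and 33.8 CPM in control cTECs (log2 fold change -5.15, SE 0.67, adjusted p = 1.7e-05). Themis had 3.58, 1.65 and 4.17 CPM in control mTEChi, against 161, 41.7 and 59.4 CPM in control cTECs (log2 fold change -4.71, SE 0.71, adjusted p = 6.3e-05). These 2 genes had the largest falls. Cd8a had 16.1, 11.3 and 10.9 CPM in control mTEChi, against 578, 115 and 163 CPM in control cTECs (log2 fold change -4.39, SE 0.55, adjusted p = 1.3e-05). Coro1a had the smallest fall that passed the test, with 96.1, 94.4 and 97.3 CPM in control mTEChi, against 516, 138 and 206 CPM in control cTECs (log2 fold change -1.49, SE 0.37, adjusted p = 0.00287). Gata3 was the exception, with 14.7, 14.2 and 17.7 CPM in control mTEChi and 32.9, 9.07 and 21.4 CPM in control cTECs, and its groups overlapped (log2 fold change -0.35, SE 0.40, adjusted p = 0.453). The count of 29 was the same in each alternative.

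Dividing by the counted gene length puts the members on one scale, the CPM per kilobase, on which they can be ranked. In control cTECs Lck averaged 237 ± 139, Cd8b1 203 ± 168, Coro1a 179 ± 126 and Tcf7 178 ± 75.4 CPM per kilobase (SD, n = 3). These SDs hold differences between libraries, since control cTEC replicate 1 was the highest for every member. Within each of these libraries Lck stood above Coro1a and Tcf7. Lck had 393, 128 and 189 CPM per kilobase, against 323, 86.3 and 129 for Coro1a and 260, 111 and 164 for Tcf7. Cd8b1 had 396, 85.0 and 127 CPM per kilobase, above Lck in replicate 1 only. Gata3 averaged 6.57 ± 3.70 and Zap70 9.33 ± 5.69 CPM per kilobase in control cTECs, at the low end. In control mTEChi the order was another, with Coro1a at 60.1 ± 0.914, Lck at 25.8 ± 4.26 and Tcf7 at 25.3 ± 3.87 CPM per kilobase, and Cd8b1 at only 10.4 ± 4.81.

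The share of each member in the summed CPM per kilobase of the 30 shows whether they kept their proportions. Between HOIL-deficient and control cTECs they did within a factor of 2: the ratio of shares ran from 0.664 for Rag2 to 1.98 for Cd28, and all 30 lay between 0.5 and 2. Lck took 12% of the sum in HOIL-deficient cTECs and 13.6% in control cTECs. Cd28 took 1.70% in HOIL-deficient cTECs and 0.860% in control cTECs, without overlap between libraries. Between control mTEChi and control cTECs only 20 of 30 lay between 0.5 and 2, and the ratio ran from 0.229 for Rag2 to 5.85 for Gata3. Coro1a took 27.3% of the sum in control mTEChi, against 9.85% in control cTECs. Cd8b1 took 4.52% in control mTEChi, against 10.6% in control cTECs, and Rag2 took 0.190% in control mTEChi, against 0.830% in control cTECs. Ratios under 0.5, with no overlap between the groups' libraries, were found for Rag1, Rag2, Dntt, Themis, Cd3e, Cd8a, Cd8b1 and Rhoh. Since the shares are parts of one total, the larger share of Coro1a in control mTEChi by itself lowers the ratios of all other members. Ratios with Coro1a left out were not taken, so some of these may not lie under 0.5 without it. In CPM, Coro1a, Tcf7 and Lck together made up 36.4% to 49.4% of the members' sum in mTEChi libraries and 24.9% to 29.5% in cTEC libraries.

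**Figure D5:**
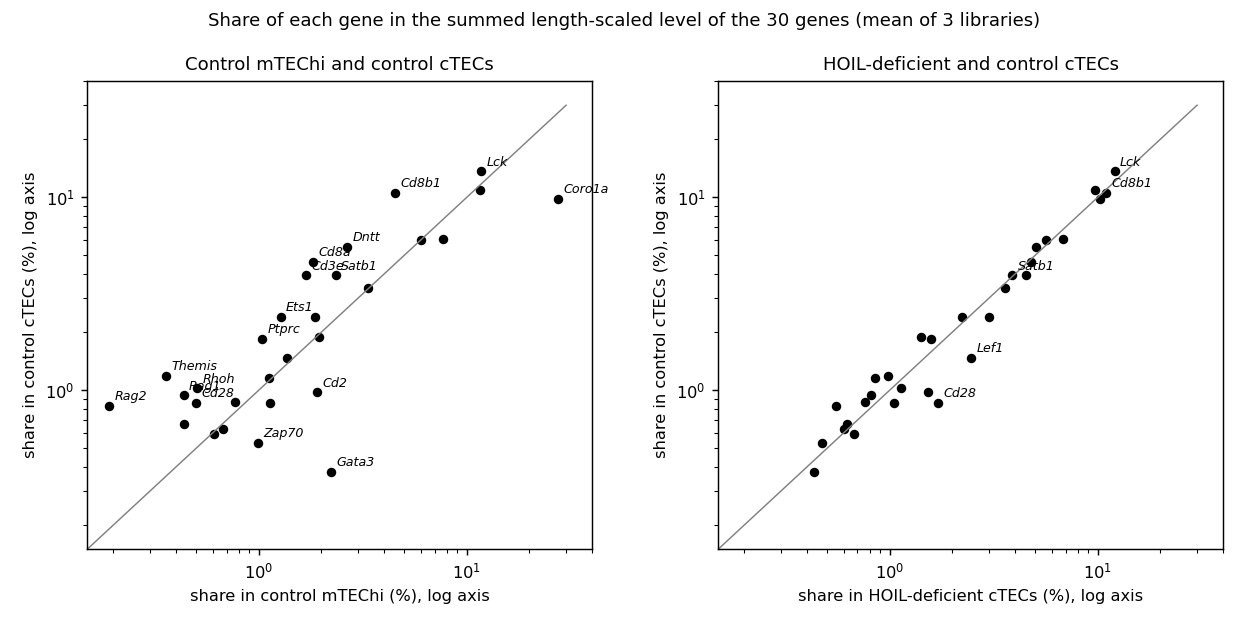
Each point is one member, placed by its share of the summed CPM per kilobase of the 30 genes, as the mean of 3 libraries, on log axes; the line marks equal shares. Left, control mTEChi against control cTECs, where Coro1a and Gata3 lie to the right of the line and Rag2 and Themis to the left. Right, HOIL-deficient against control cTECs, where all 30 lie within a factor of 2 of the line.

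Other genes of the same cells were counted on lists chosen with earlier results of these data known. Of 24 further T cell receptor signalling genes, 14 fell in HOIL-deficient cTECs and none rose, with a median log2 fold change of -1.72. Trbc1, a constant segment of the receptor beta chain whose near-identical copy Trbc2 makes its count uncertain, had 76.0, 79.0 and 98.6 CPM in HOIL-deficient cTECs and 666, 162 and 252 CPM in control cTECs (log2 fold change -2.19, adjusted p = 0.00812). Lcp2, the adaptor SLP-76, fell (log2 fold change -2.05, adjusted p = 0.0112), and so did the exchange factor Vav1 (log2 fold change -1.68, adjusted p = 0.0105). Of 22 double-positive thymocyte genes, 13 fell and none rose, with a median of -1.42. Among these were the transcription factor Myb (log2 fold change -1.84, adjusted p = 0.00196), the deacetylase Hdac7 (log2 fold change -1.50, adjusted p = 0.00218) and the Ikaros relative Ikzf3 (log2 fold change -2.61, adjusted p = 0.00382). For the other stages, of 20 mature single-positive and regulatory T cell genes 3 fell and 1 rose (median -0.45), and of 13 tested double-negative and progenitor genes 1 fell and 2 rose (median 0.26). Among the mature genes that fell were Ctla4, an inhibitory receptor, with 0.355, 0 and 0 CPM in HOIL-deficient cTECs and 3.78, 1.51 and 3.93 CPM in control cTECs, and Il7r, the interleukin-7 receptor chain, with 0, 0.102 and 0.0754 CPM in HOIL-deficient cTECs and 3.04, 0.504 and 0.930 CPM in control cTECs. Both had so few counts in HOIL-deficient cTECs that their fitted fold changes are not given. The 1 that rose was S1pr1, the egress receptor (log2 fold change 2.22, adjusted p = 0.00196). It rose in HOIL-deficient mTEChi too (log2 fold change 1.98, adjusted p = 0.00233). Endothelial genes rose in both cell types as well, and which cells the S1pr1 RNA came from was not tested. Of the all-gene background, 6.06% rose in HOIL-deficient cTECs. In HOIL-deficient mTEChi, 1 receptor signalling gene rose and 3 fell, Vav1 among those that fell (log2 fold change -1.26, adjusted p = 0.0285), and 4 double-positive genes rose and 1 fell. Over all tested genes in mTEChi, 11.3% rose and 8.59% fell.

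Markers of other cell types were counted in the same libraries, and their part in the members' changes was not tested. Of 20 pan-leukocyte genes 14 fell in HOIL-deficient cTECs and none rose (median -1.62), with Ikzf1 (log2 fold change -2.01, adjusted p = 0.00350), Rac2 (log2 fold change -2.06, adjusted p = 0.00369) and Ptpn6 (log2 fold change -1.08, adjusted p = 0.00208) in front. Their summed level was 1024 to 1178 CPM in HOIL-deficient cTECs and 1218 to 2521 CPM in control cTECs. Of 13 tested B and plasma cell genes 4 fell and 1 rose, at a summed 63.5 to 102 CPM in HOIL-deficient cTECs and 101 to 327 CPM in control cTECs. Ighm, the immunoglobulin mu chain, followed the thymocyte genes, with 38.4, 34.5 and 51.7 CPM in HOIL-deficient cTECs and 273, 83.7 and 120.4 CPM in control cTECs (log2 fold change -2.04, adjusted p = 0.00237). Mzb1 and Cd79b, also among the 4 that fell, were low but present in control cTECs. Mzb1 had 4.70, 2.77 and 2.48 CPM in control cTECs (log2 fold change -2.73, adjusted p = 0.0167). Cd79b had 15.7, 3.90 and 7.13 CPM in control cTECs (log2 fold change -1.85, adjusted p = 0.0420), and its cTEC groups overlapped. Pax5, a defining B cell factor, was at 0 counts in all 6 cTEC libraries. Dendritic cell and macrophage genes were scarce in cTECs, at 69.3 to 133 CPM in HOIL-deficient and 41.7 to 47.9 CPM in control libraries, summed over 18 genes. Of 16 tested 1 rose, Lyz2 (log2 fold change 2.20, adjusted p = 0.00279), and none fell. Of 7 tested natural killer and innate lymphoid genes 1 fell, at a summed 8.81 to 21.7 CPM in HOIL-deficient cTECs and 22.8 to 24.2 CPM in control cTECs. Of 6 tested erythroid genes 1 fell, Klf1, which was at 0 counts in HOIL-deficient cTECs. Erythroid genes summed to 32.4 to 628 CPM in HOIL-deficient cTECs and 155 to 433 CPM in control cTECs. Ncr1, Klrk1 and Il22 were at 0 counts in all 6 cTEC libraries. Hba-a1, a hemoglobin chain, stood at 14.2, 238 and 227 CPM in HOIL-deficient cTECs and 174, 65.0 and 66.5 CPM in control cTECs. Its groups overlapped, and among controls it was highest in replicate 1, as the members were.

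Stromal markers moved the opposite way to the members between HOIL-deficient and control cTECs, but not in every respect among the control libraries. Endothelial genes rose for 13 of 14 in HOIL-deficient cTECs (median 2.73), at a summed 181 to 486 CPM, against 34.0 to 74.5 CPM in control cTECs. Sox18 (log2 fold change 2.83, adjusted p = 0.00079) and Esam (log2 fold change 2.77, adjusted p = 0.00091) led them. Fibroblast and pericyte genes rose for 9 of 14 (median 2.24), at 3488 to 4595 CPM in HOIL-deficient cTECs and 229 to 1558 CPM in control cTECs, led by Myl9 (log2 fold change 3.23, adjusted p = 0.00015) and Tagln (log2 fold change 2.74, adjusted p = 0.00059). In control cTEC replicates 1 to 3 the fibroblast and pericyte sum was 1558, 229 and 605 CPM, the same order as the members' sum. The endothelial sum was 70.3, 34.0 and 74.5 CPM there, highest in replicate 3. Of 20 thymic epithelial genes 8 fell and 2 rose, at a summed 60990.4 to 62311 CPM in HOIL-deficient cTECs and 84307 to 97808 CPM in control cTECs. Psmb11, the thymoproteasome subunit (log2 fold change -1.35, adjusted p = 0.00108), Ly75 (log2 fold change -1.47, adjusted p = 0.00147) and Cd83 (log2 fold change -1.99, adjusted p = 0.00054) were lower. Epcam and Krt8 overlapped between the groups. Epcam had 400.0, 371 and 434 CPM in HOIL-deficient cTECs and 366, 392 and 349 CPM in control cTECs. Krt8 had 4181, 3033 and 4520 CPM in HOIL-deficient cTECs and 3044, 4667 and 4581 CPM in control cTECs. Foxn1 was at 380.1, 288 and 413 CPM in HOIL-deficient cTECs and 351, 660.1 and 547 CPM in control cTECs. In control cTEC replicate 1, where the members were highest, Foxn1 was lowest among the controls, but Psmb11 was highest, with 1687, 1452 and 1597 CPM in HOIL-deficient cTECs and 4404, 3585 and 3364 CPM in control cTECs, and so was the sum of the 20 epithelial genes. In HOIL-deficient mTEChi, where no member was called lower, endothelial genes rose for 9 of 14 and fibroblast and pericyte genes for 4 of 14.

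Between control mTEChi and control cTECs the lists of other leukocytes were counted in the same way. Of 20 pan-leukocyte genes 8 were lower in mTEChi and 5 higher (median -0.66), against 26.4% lower over all tested genes. The summed level of these 20 genes went the other way, at 2586 to 3100 CPM in control mTEChi and 1218 to 2521 CPM in control cTECs, without overlap. Of 16 tested dendritic cell and macrophage genes 12 were higher in mTEChi, of 13 tested B and plasma cell genes 8 were, and of 7 tested natural killer and innate lymphoid genes 5 were, against 37.8% of all tested genes. Of 24 further T cell receptor signalling genes 22 were lower in mTEChi and none higher. The lists of thymocyte stages were mixed. Of 22 double-positive thymocyte genes 14 were lower in mTEChi and 4 higher. The summed level of these 22 genes overlapped, at 1253 to 1363 CPM in control mTEChi and 1139 to 2196 CPM in control cTECs. Of 20 mature single-positive and regulatory T cell genes 3 were lower and 8 higher (median 1.71). Of 13 tested double-negative and progenitor genes none were lower and 6 higher.

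The members varied together from library to library, most of all in cTECs. Each member's log2 CPM was correlated with the mean of the other 29 over the 6 cTEC libraries, and Pearson's r ran from 0.899 to 0.997, with a median of 0.977. Over the 6 mTEChi libraries r ran from -0.40 for Gata3 to 0.97 for Cd8b1, with a median of 0.69. These are descriptions, since the libraries share their groups and the values of a library share its depth. The 10 other genes most like the members' mean over both cell types, of 13634 considered, were ranked by the lower of the 2 correlations. They were Edem1, Npc1, Arhgap15, Trbv13-2, Tagap1, Gramd1a, Cwf19l1, Phf20l1, Mfsd4b3-ps and Nim1k. Edem1 had r of 0.919 in mTEChi and 0.997 in cTECs. Trbv13-2, a variable segment of the receptor beta chain, had r of 0.903 in mTEChi and 0.950 in cTECs. Phf20l1 had r of 0.879 in mTEChi and 0.949 in cTECs, yet it averaged 98.2 CPM in HOIL-deficient and 98.7 CPM in control cTECs. These genes were picked for their r among 13634 over few libraries, so a high r follows from the ranking itself.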

How the data were processed

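The files hold raw counts, deposited as 1 count per gene and library with the gene length. Per the submitters' processing notes, the authors counted reads per gene by featureCounts against mm10. No source used here names the aligner, the annotation release or the strand setting. Per the labels, RNA was amplified with a SMART-Seq low-input kit. Amplified reads carry no molecular identifiers, so counting error is a lower limit. Symbols and positions came from RefSeq (GRCm38.p6), which named 25275 of 27179 genes. CPM are counts scaled to a library's total count.

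Counts were filtered with filterByExpr, scaled by TMM and fitted in 1 model of all 12 libraries, a coefficient for each group, with edgeR 4.0.16 (robust glmQLFit and glmQLFTest, R 4.3.3). Calls are at a Benjamini-Hochberg adjusted p under 0.05 across 19398 tested genes. Alternatives were RLE and upper-quartile scaling, no count filter, DESeq2 1.42.0, limma-voom (limma 3.58.1), the contrast's groups alone, a replicate block, the male libraries and each library left out. No batch is labelled. On counts simulated for the cTEC comparison with 18800 genes, the test found 72 of 100 genes changed by 2 on the log2 scale and 21 of 100 changed by 1.

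The 30 members and the 12 companion lists were chosen with earlier results of these data known. The text names the members, Rbck1, up to 3 tested genes of each companion list with the smallest p in cTECs, and the 10 genes most like the members' mean. Epithelial and blood markers beside them were chosen as defining genes of their cell type. A further defining B cell marker is not reported here.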

Additional observations from a re-analysis of the deposited data

Results flagged for a closer look

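For 16 members the HOIL effect differed between the cell types by a test of the difference itself (mTEChi effect minus cTEC effect, log2). Each was lower in HOIL-deficient cTECs, and Ets1 alone was also higher in HOIL-deficient mTEChi by its own test. Among the receptor chains the difference was 2.61 for Cd3e, 2.42 for Cd4 and 2.71 for Cd8a. In receptor assembly it was 2.26 for Dntt and 2.90 for Ptcra. Among the signal relay genes it was 1.91 for Lck, 3.29 for Themis, 2.20 for Rhoh, 2.19 for Coro1a and 2.70 for Ptprc. Cd6 was the 1 surface receptor, at 3.17. The nuclear regulators stood at 2.63 for Tcf7, 2.36 for Bcl11b, 2.21 for Satb1 and 2.64 for Ets1, and Arpp21 at 2.09. The calls of Cd4, Cd6, Tcf7, Bcl11b and Ets1 were kept in all 19 alternatives run for the difference.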

How the results depend on the processing

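The member count in cTECs (25) fell to 16 when the 2 cTEC groups were fitted alone, and ran from 11 to 27 without single libraries. In mTEChi the count of 1 became 4 when those groups were fitted alone, and ran from 1 to 2 without single libraries. The count for the difference (16) was 10 without a count filter, 7 with limma-voom and 9 in male libraries, and ran from 5 to 22 without single libraries. DESeq2 called 28 members in cTECs and 21 for the difference. The count of 29 between control mTEChi and control cTECs stayed in all 20 alternatives, and so did the direction of its members except Gata3, whose fold change ran from -0.72 to 0.13 without single libraries. The ratio of summed levels ran from 0.235 to 0.453 in cTECs and from 1.16 to 1.46 in mTEChi without single libraries. All fold changes of members in cTECs and all differences stayed on one side of 0. RLE scaling moved the fold changes between control mTEChi and control cTECs by 0.19 and the differences by -0.13 on the log2 scale, and upper-quartile scaling by 0.16 and -0.14. The causes of the lost calls were not tested.

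Replicate numbers did not pair HOIL-deficient with control libraries of a cell type, since 0 of 3 correlated best with their own number in either type. Over all pairs of groups compared, deviations of same-numbered libraries correlated at -0.16 to 0.098. With a replicate block 24 members were called in cTECs and 16 for the difference. In HOIL-deficient mTEChi and cTECs, 3 of 3 libraries correlated best with their own number (r of 0.035 to 0.078), and replicate 3 was female in both. In control mTEChi and cTECs 1 of 3 did. Whether the 2 cell types came from the same animals is not given, and the main fit took the libraries as independent. With 3 libraries per group and members down to 10 counts, many small changes may have been missed. In the simulated cTEC comparison 21 of 100 genes changed by 1 on the log2 scale were found. The part of depth in this was not tested.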
